A study of Homo sapiens with 15 samples.

Results

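DLD1 is an established human colorectal adenocarcinoma cell line. Its 5 bisulfite sequencing libraries, of 15 in the series, were chosen by line from the sample titles and are described here. Each library reports the percentage of CpG methylation for 834 named repeats of the RepeatMasker annotation. DLD1 was cultured in serum-containing RPMI-1640 medium with 0 nM 5-azacitidine (2 libraries, the untreated control), 500 nM (1 library) or 1000 nM (2 libraries). No genotype change, treatment time or further agent is named in the labels. The replicates are technical by the series design, so every p-value within DLD1 reflects library-to-library spread only and says nothing of spread over cultures. The p-values for DLD1 against other lines also say nothing of spread over cultures. Where the other lines are pooled, these p-values take in the difference between those lines as well. The other lines, HCT116 and HCT8, are colorectal carcinoma lines with the same 5 libraries each, and serve only for comparison. The table lists repeats and no genes, so the identity of the line could not be checked against marker genes.

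Repetitive elements make up much of the human genome, and most of their CpGs are methylated in differentiated cells. Methylation helps to keep L1, Alu, SVA and endogenous retroviral promoters silent. It is copied onto the new strand at each division by the maintenance methyltransferase DNMT1, and cancer cells commonly show a partial loss of it at repeats. 5-Azacitidine is a cytidine analogue. After conversion it is built into DNA, where it traps DNA methyltransferases, so that methylation is diluted as cells divide.

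The rows of the table could not be followed from library to library. Across the 834 repeats, Pearson correlations between the 5 DLD1 libraries lay between -0.0343 and 0.0504 over 10 pairs, technical replicates included (0.00477 without drug and -0.0137 at 1000 nM). Repeats are not independent replicates, so these correlations are a description of the table. The dose comparisons below therefore use summaries that any reordering of rows leaves unchanged. They hold for the repeats as a set on the condition that every column lists the same repeats. Names are used in replicate 1 of the untreated cells, the library in which repeats of like name had like values. There the value of a row correlated with that of the next row, which often carries a related name, at 0.287, against -0.0338 to 0.0557 in the other 4 DLD1 libraries. Read depth per repeat is unknown. Intervals for counting error are therefore not given, and the spread over repeats includes counting error of unknown size.

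Repeat methylation in DLD1 was lower in every library with drug than in either library without it. The mean over repeats was 60.1% and 60.4% in the untreated replicates, 37.0% at 500 nM, and 38.3% and 36.9% at 1000 nM. The untreated and treated groups did not overlap. The technical replicates were 0.283 points apart without drug and 1.41 points apart at 1000 nM. At 1000 nM the mean differed from the untreated mean by -22.7 points (60.3% ± 0.200 against 37.6% ± 1.00, SD, n = 2 technical replicates each), a relative change of -37.6%. The exact permutation p was 0.333 (two-sided, n = 2 against 2), the smallest that 6 arrangements allow. With the 500 nM library added to the treated group, the difference was -22.9 points (exact permutation p = 0.2, two-sided, 3 libraries against 2), again the smallest possible. None of the designs within DLD1 could reach 0.05.

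Few repeats stood at 60% or more in the treated libraries. Repeats at 60% or more numbered 484 and 496 of 834 in the untreated replicates, 76 at 500 nM, and 45 and 77 at 1000 nM. As shares these were 58.0% and 59.5% without drug, 9.11% at 500 nM, and 5.40% and 9.23% at 1000 nM. The untreated libraries thus held most of their repeats at or above this level and the treated libraries fewer than 1 in 10. The mean difference at 1000 nM was -51.4 points of share (exact permutation p = 0.333, two-sided, n = 2 against 2).

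At the other end, repeats below 20% numbered 21 and 30 without drug, 127 at 500 nM, and 75 and 129 at 1000 nM. The treated libraries were all higher, but replicate 1 at 1000 nM stood well below the other 2. The difference at 1000 nM was 9.17 points of share (3.06% ± 0.763 against 12.2% ± 4.58, SD, n = 2 technical replicates each; exact permutation p = 0.333). It was 5.94 points without replicate 2 at 1000 nM and 12.4 points without replicate 1.

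The most populated band of 10 points lay in the upper middle of the scale without drug and lower with it. Without drug it was the band from 60% to 70%, with 275 repeats in replicate 1 and 230 in replicate 2. At 500 nM it was the band from 40% to 50%, with 197 repeats. At 1000 nM the bands from 30% to 40% and from 40% to 50% held 254 and 253 repeats in replicate 1, and 222 and 167 in replicate 2. Every treated library also listed some repeats at 80% or more, 14 at 500 nM and 10 and 24 at 1000 nM, against 43 and 76 without drug; whether these are the same repeats cannot be read from the table.

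**Figure D1:**
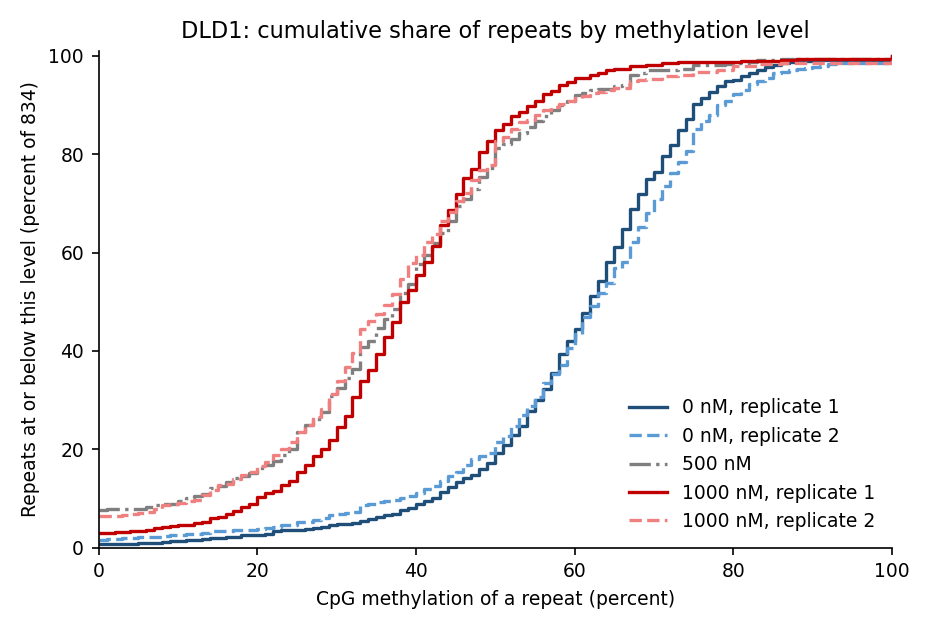
Cumulative share of the 834 repeats (vertical axis, percent of repeats) at or below each methylation level (horizontal axis, percent) in the 5 DLD1 libraries, 1 line per library. The curves of the 3 treated libraries lie to the left of the untreated pair over most of the range, with medians of 37% to 39% against 62% and 63%.

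The position of each percentile was then compared to see whether the low and high parts of the distribution were shifted by equal amounts. A percentile is a place in each library's own ranking and need not be the same repeat. In percentage points, the mean shift of the 2 replicates at 1000 nM was close to constant through the middle of the distribution. From the 10th to the 90th percentile, in steps of 5, the shift at 1000 nM averaged -24.1 points with an SD over the 17 percentiles of 1.12 points, and ranged from -25.5 points at the 45th to -20.4 points at the 90th percentile. At the 25th percentile the untreated replicates were at 54% and 53%, the 500 nM library at 27%, and the 1000 nM replicates at 31% and 27%. At the 75th percentile these values were 69.8% and 72%, 48%, and 46% and 48%. The mean shifts at 1000 nM at these percentiles were thus nearly the same number of points, -24.5 and -23.9. Single libraries were less alike. The shift at the 10th minus that at the 90th percentile was -8.15 points without replicate 1 at 1000 nM and 1.85 points without replicate 2. At 500 nM the shift was -29 points at the 10th and -18.85 points at the 90th percentile.

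As a ratio the shift was uneven. The level at 1000 nM was 0.413 of the untreated level at the 10th percentile, 0.542 at the 25th, 0.608 at the median, 0.663 at the 75th and 0.735 at the 90th. The relative loss was therefore 58.8% at the 10th percentile and 26.5% at the 90th. The shift in log2(percent + 1) at the 10th minus that at the 90th percentile was -0.82, and the 2 groups of libraries did not overlap in the span it is made from (exact permutation p = 0.333, two-sided, n = 2 against 2). It was -0.48 when values of 0% and 100% were left out, and -0.49 without replicate 2 at 1000 nM. On the logit scale, the natural log of methylated over unmethylated with an offset of 1 point, the mean shift at 1000 nM was again nearly level. It averaged -1.01 over the 17 percentiles with an SD of 0.0608. Its difference between the 10th and the 90th percentile was -0.28 (exact permutation p = 0.667, n = 2 against 2, libraries overlapping) and -0.011 without values of 0% and 100%. That difference was -0.58 without replicate 1 at 1000 nM and 0.024 without replicate 2. At 500 nM the logit shift was -1.62 at the 10th and -0.857 at the 90th percentile.

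**Figure D2:**
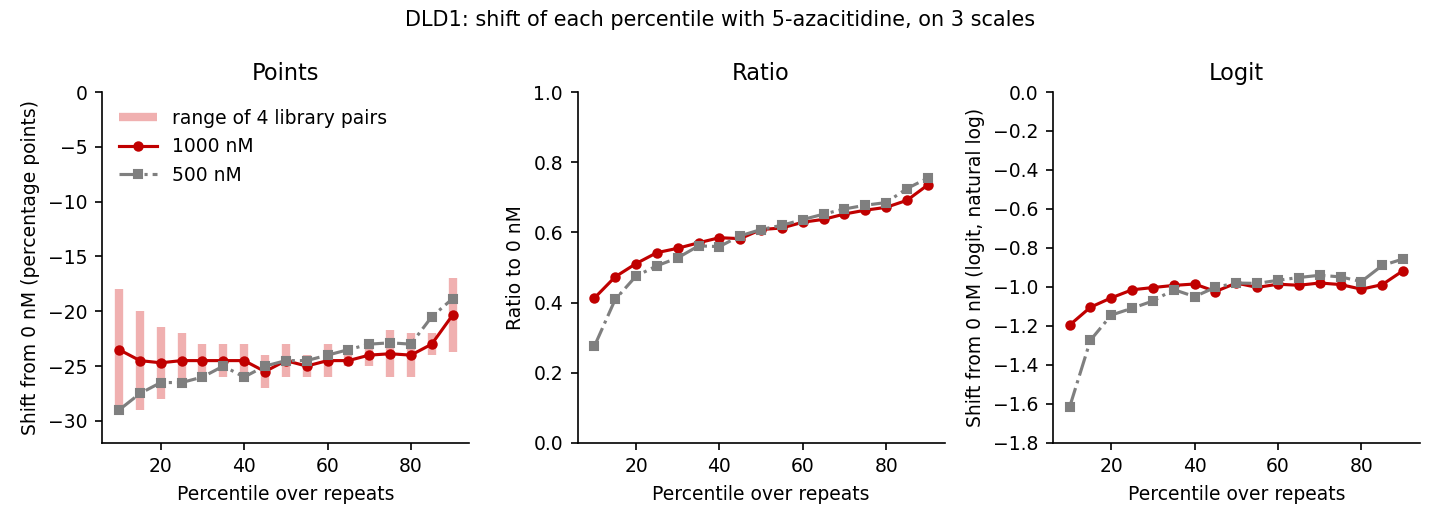
Shift of each percentile of the DLD1 distribution (horizontal axis, 10th to 90th percentile over repeats) from 0 nM to 1000 nM (circles, mean of 2 replicates) and to 500 nM (squares, 1 library), in percentage points, as a ratio and on the logit scale. Bars in the first panel span the 4 pairs of a treated and an untreated library; the ratio climbs from 0.413 to 0.735 at 1000 nM while the shift in points stays between -25.5 and -20.4.

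The same comparison was made by fitting 1 constant to the whole distribution. Each untreated library was shifted by subtraction, by multiplication or by addition on the logit scale until its mean distance to a treated library (the Wasserstein distance, in points) was smallest. Before any shift the 4 pairs of an untreated and a 1000 nM library were 21.8 to 23.5 points apart. Subtracting 23 to 26 points left a distance of 2.23 points on average (range over 4 pairs 1.04 to 3.76). A logit shift of -1.05 to -0.94 left 2.11 points (0.807 to 3.82). Multiplying by 0.610 to 0.645 left 5.21 points (2.78 to 7.62), more than either other shift in each of the 4 pairs. For scale, technical replicates were 2.24 points apart without drug and 3.81 points apart at 1000 nM. With values of 0% and 100% left out, a setting added after the data were seen, the distances left were 2.31, 1.41 and 3.94 points for subtraction, logit and multiplication. No test was made of these distances, and the part of counting error in them was not tested.

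Although single repeats cannot be followed, the distributions set a floor on how many of them must have been listed lower with drug. The floor is the largest gap between the cumulative curves, and it holds for any order of the rows as long as the columns list the same repeats. Between an untreated and a 1000 nM library at least 61.0% to 65.7% of repeats (4 pairs, mean 63.4%) had to be lower at 1000 nM. The same measure required 3.24% of repeats to be lower and 6.83% to be higher in untreated replicate 2 than in replicate 1. Between the technical replicates at 1000 nM it required 10.4% to be lower and 4.92% to be higher in replicate 2. A loss of more than 10 points was required for 39.8% to 43.2% of repeats, and of more than 20 points for 11.4% to 19.7%. From replicate 1 to replicate 2 these floors were 0.240% and 0% without drug, and 1.92% and 0% at 1000 nM. These are least values for the listed percentages, and the shares of repeats listed lower may be larger. Counting error enters the listed values, so the floors do not bound the share of repeats that lost methylation. A repeat drawn at random from a 1000 nM library was below one drawn at random from an untreated library in 83.7% to 87.1% of draws. In this share, tied draws were divided evenly between below and above.

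The spread over repeats differed more between technical replicates than between doses. The SD over repeats was 15.3 and 18.0 points in untreated replicates 1 and 2, 18.5 points at 500 nM, and 14.9 and 19.0 points at 1000 nM. The groups overlapped, and the mean difference at 1000 nM was 0.320 points (exact permutation p = 1, two-sided, n = 2 against 2). It was -1.74 points without replicate 2 at 1000 nM and 2.38 points without replicate 1. Replicate 2 was the wider library in both DLD1 pairs, and in 6 of 6 technical pairs over the 3 lines, by 0.948 to 6.33 points of SD. What the replicate number stands for is not given in the sources used here. Because the mean was lower with an SD of like size, the SD as a percentage of the mean was 25.4% and 29.8% without drug, 49.9% at 500 nM, and 38.9% and 51.6% at 1000 nM, and here the groups did not overlap.

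Skewness, a measure of asymmetry that is negative when the far low values outweigh the far high ones, was higher in the treated libraries. It was -1.09 and -1.04 without drug, 0.0297 at 500 nM, and 0.132 and 0.386 at 1000 nM. All treated libraries were above both untreated ones, and the difference at 1000 nM was 1.32 (exact permutation p = 0.333, two-sided, n = 2 against 2). The upper side of the central range was wider in every treated library. The distance from the median to the 90th percentile was 13 and 15.7 points without drug, 20 points at 500 nM, and 16 and 21 points at 1000 nM. The distance from the 10th percentile to the median was 20 and 25 points without drug, 27 points at 500 nM, and 19 and 24 points at 1000 nM, with the 0 and 1000 nM libraries overlapping. In each of the 5 libraries the lower of these distances exceeded the upper one, and at 500 nM the skewness was close to 0.

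Repeats listed at exactly 0% were more numerous with drug. There were 7 and 14 without drug, 64 at 500 nM, and 25 and 54 at 1000 nM, and the groups did not overlap. Repeats listed at 100% numbered 7 and 12, 5, and 5 and 12 in the same order, and these counts overlapped. The combined share at 0% or 100% was 3.36 points higher at 1000 nM (exact permutation p = 0.333, n = 2 against 2), 1.2 points higher without replicate 2 at 1000 nM and 5.52 points higher without replicate 1. Values of exactly 50% numbered 16 and 19 without drug, 34 at 500 nM, and 18 and 40 at 1000 nM, so replicate 2 at 1000 nM and the 500 nM library also held the most of these. With values of 0% and 100% left out, the change in the mean at 1000 nM was -21.8 points.

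**Figure D3:**
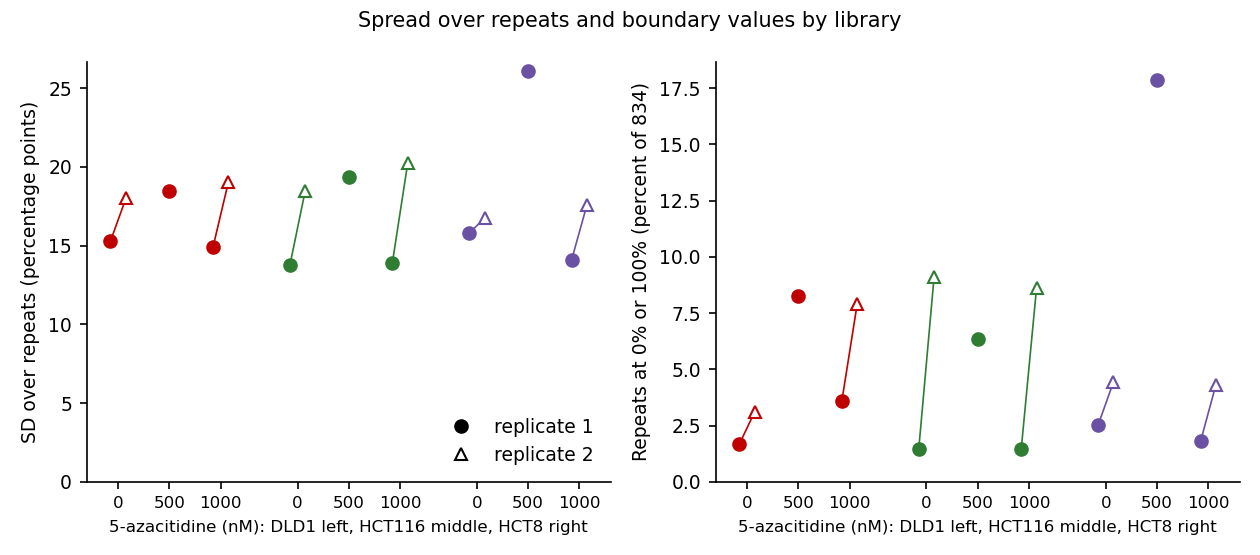
SD over repeats in percentage points (left) and share of the 834 repeats listed at 0% or 100% (right) for each library by 5-azacitidine dose, with technical replicates joined by a line. Replicate 2 (open triangles) lies above replicate 1 (filled circles) in all 6 pairs, and the DLD1 pairs at 0 and 1000 nM overlap in SD.

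The 500 nM library could not be told from the 1000 nM replicates by its position. Its median was 38% against 39% and 37%, and its mean lay between theirs. It was 1.16 points (Wasserstein distance) from replicate 2 at 1000 nM and 3.35 points from replicate 1, both less than the 3.81 points between these replicates. The mean at 1000 nM minus that at 500 nM was 0.544 points (exact permutation p = 1, two-sided, n = 2 against 1), and -0.937 points when values of 0% and 100% were left out. Its percentiles left the range of the replicates at few points. The 10th percentile was 11% against 20% and 13% at 1000 nM, whereas the 5th was 0% against 12.7% and 0%. On the upper side the 65th was 44% against 43% in both replicates, the 70th 46% against 45% in both, and the 85th 54% against 51% and 52%. From the 15th to the 60th percentile it lay within the range. Whether the doses differ cannot be judged from 1 library at 500 nM, for which the smallest possible p is 0.667.

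How far DLD1 differed from the other lines depended on the scale and, in points, on whether means or medians were used. In percentage points of the mean, the differences between 1000 and 0 nM by replicate number were -21.8 and -23.5 in DLD1, against -15.96 and -10.4 in HCT116 and -21.5 and -20.0 in HCT8. As a log2 ratio of means they were -0.65 and -0.71 in DLD1, -0.36 and -0.22 in HCT116, and -0.55 and -0.50 in HCT8. On both scales, with this pairing, DLD1 lay beyond all 4 differences of the other lines. The exact permutation p was 0.133 on each (two-sided, 2 differences against 4, the smallest possible). After Benjamini-Hochberg adjustment over 3 scales it was 0.2. On the logit scale of the median, DLD1 was at -0.92 and -1.04 and overlapped HCT8 at -0.95 and -0.88 (exact permutation p = 0.267 against both lines, adjusted p = 0.267). The difference between DLD1 and HCT8 alone was -1.96 points, -0.16 as a log2 ratio and -0.07 on the logit scale, with exact permutation p of 0.333, 0.333 and 0.667. Forming the differences by the other pairings within lines gave a largest p of 0.267 in points and 0.133 as a log2 ratio. The separation in points thus depended on the pairing. With medians in place of means, the exact permutation p (2 differences against 4) was 0.267 in points and 0.133 as a log2 ratio. With the mean on the logit scale it was 0.267. DLD1 also started lowest, at a mean of 60.3% without drug against 72.9% in HCT116 and 68.3% in HCT8.

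Among 8 measures compared between DLD1 and the other lines, with libraries paired by replicate number, 2 besides the mean did not overlap. The share of repeats below 20% averaged 3.06% without drug and 12.2% at 1000 nM in DLD1, 2.22% and 3.18% in HCT116, and 2.52% and 5.16% in HCT8. The share at 0% or 100% was higher by 3.36 points in DLD1, against -0.240 points in HCT116 and -0.420 points in HCT8. The share at 0% alone was higher in all 3 lines, by 3.48 points in DLD1, 0.540 points in HCT116 and 0.779 points in HCT8. At 500 nM, with 1 library a line, HCT8 stood above DLD1 on each of these shares. The share below 20% was 16.7% in HCT8, 15.2% in DLD1 and 5.40% in HCT116. In the same order, the share at 0% or 100% was 17.9%, 8.27% and 6.35%, and that at 0% alone 10.8%, 7.67% and 3.00%. The changes at 1000 nM in the shares below 20% and at 0% or 100% were tested between lines. For both, the exact permutation p was 0.133 (two-sided, 2 differences against 4), and 0.356 after Benjamini-Hochberg adjustment over the 8 measures. The share at 0% alone was not tested between lines. The change in skewness was 1.32 in DLD1, 1.15 in HCT116 and 1.29 in HCT8, with overlapping differences (exact permutation p = 0.667, 2 differences against 4).

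**Figure D4:**
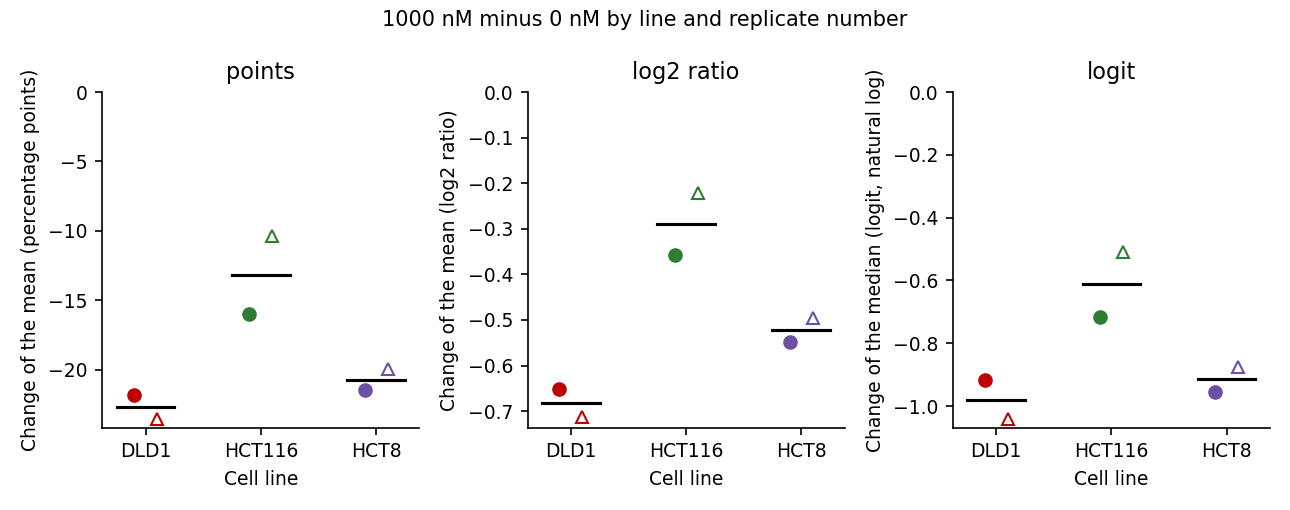
Change from 0 to 1000 nM 5-azacitidine in the 3 lines, as points and as log2 ratio of the mean and as logit of the median over repeats, for replicate 1 (filled circles) and replicate 2 (open triangles), with the mean of both as a bar. With libraries paired by replicate number, DLD1 lies lowest on the first 2 scales and overlaps HCT8 on the logit scale.

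Named repeats were described in replicate 1 of untreated DLD1, where the level of a repeat went with its name. This is 1 library with no replicate check, so no comparison below was tested. Its median over repeats was 62.0%. L1 elements are the autonomous retrotransposons of the human genome, and their subfamily names run from the primate-specific L1PA and L1PB to the older, mammal-wide L1M. The 18 L1HS and L1PA names averaged 51.4% ± 4.0 (SD over members), from 43% for L1PA15-16 to 59% for L1HS, the human-specific subfamily that is still mobile. The 8 L1PB names averaged 54.5% ± 4.34 and the 12 L1MA names 52.8% ± 4.71. All 38 of these names lay below the library median.

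The older L1 names stood higher, with a step between L1MA and L1MB. The 7 L1MB names averaged 68.4% ± 5.77, with 6 above the median; L1MB1 was at 57% and L1MB2 at 69%. L1ME averaged 66.1% ± 5.08 over 20 names, 16 of them above the median, and L1MD 65.2% ± 4.71 over 6. L1MC was the most uneven, at 62.5% ± 11.8 over 10 names, from 34% for L1MCb to 75% for L1MC4. The range of the L1MA names, 44% to 58%, touched that of L1MB, 57% to 75%, only at its edge. Outside L1, AluJ names averaged 74.5% ± 1 (4 names), AluS 72.8% ± 1.63 (17 names) and AluY 75.4% ± 4.11 (14 names). SVA averaged 82.7% ± 3.78 over 6 names. All of these Alu and SVA names lay above the median. Satellites averaged 44.8% ± 16.7 over 10 names, 8 of them below it.

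DNA transposons, which moved by cutting and pasting and are extinct in humans, were mostly above the median. Tigger names averaged 69.8% ± 9.75 (21 of 26 above), from 46% for Tigger1a_Art to 86% for Tigger12A. Charlie names averaged 69.7% ± 7.84 (20 of 25 above), from 50% for Charlie25 to 84% for Charlie9. Of the mariner-type names, the short MADE1 was at 50% and MADE2 at 87%, so this group of 4 had no common level.

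Among LTR retrotransposons the THE1 group, a primate-specific member of the MaLR elements, was the lowest. Its 9 names averaged 44.8% ± 11.7 and all lay below the median, from 16% for the internal region THE1-int to 55% for THE1D. The related MST and older MLT1 names averaged 55.9% ± 9.97 (10 names) and 60.2% ± 7.29 (45 names). MLT2, the LTRs of ERVL elements, averaged 58.3% ± 8.72 over 12 names. The large group of LTR names (150 names, 61.2% ± 10.8) spread widely around the median, from 22% for LTR19C to 84% for LTR38B. So did the MER names (167 names, 61.5% ± 13.0), a group formed by name that is not limited to LTR elements.

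The low end of this library was made up mostly of RNA-derived and simple repeats. The high end was mixed and also held tRNA names and simple repeats. The 16 names at 15% or less held 6 structural RNA names (U1 and LSU-rRNA_Hsa at 5%, 5S at 8%, U4 at 9%, U17 at 13% and 7SLRNA at 14%), 4 tRNA names, 5 simple repeats and MER133A. U1 and U4 are spliceosomal RNAs, 5S and LSU-rRNA_Hsa are ribosomal RNAs, and 7SLRNA belongs to the signal recognition particle and is the ancestor of Alu. The 19 names at 85% or more held SVA_E at 88%, SVA_F at 85%, Tigger12A at 86%, Tigger10 and Tigger3d at 85%, MADE2 at 87% and MER48 at 85%. The high end also held the simple repeats (GTGTG)n at 90% and (CCTG)n at 86%, HY1 at 92%, L5 at 87% and ORSL-2a at 86%. Of the 7 names at exactly 100%, 3 were tRNA names, and the others were UCON2, UCON8 and the simple repeats (GTATG)n and (TCCGG)n. The 13 tRNA names as a group ran from 0% to 100%, with 9 below the median.

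Simple repeats, tandem copies of a short unit, were split by whether the repeated unit contains a CG, a grouping chosen after the values were seen. The 15 names with a CG in the unit averaged 38.0% ± 29.97, with 11 below the median. Examples are (CCGAG)n and (CTCGG)n at 0%, (CGG)n at 16% and (CG)n at 24%, whereas (TCCGG)n was at 100%. The 60 names without it, of which a perfect array holds no CpG, averaged 55.9% ± 20.3, with 36 below the median.

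**Figure D5:**
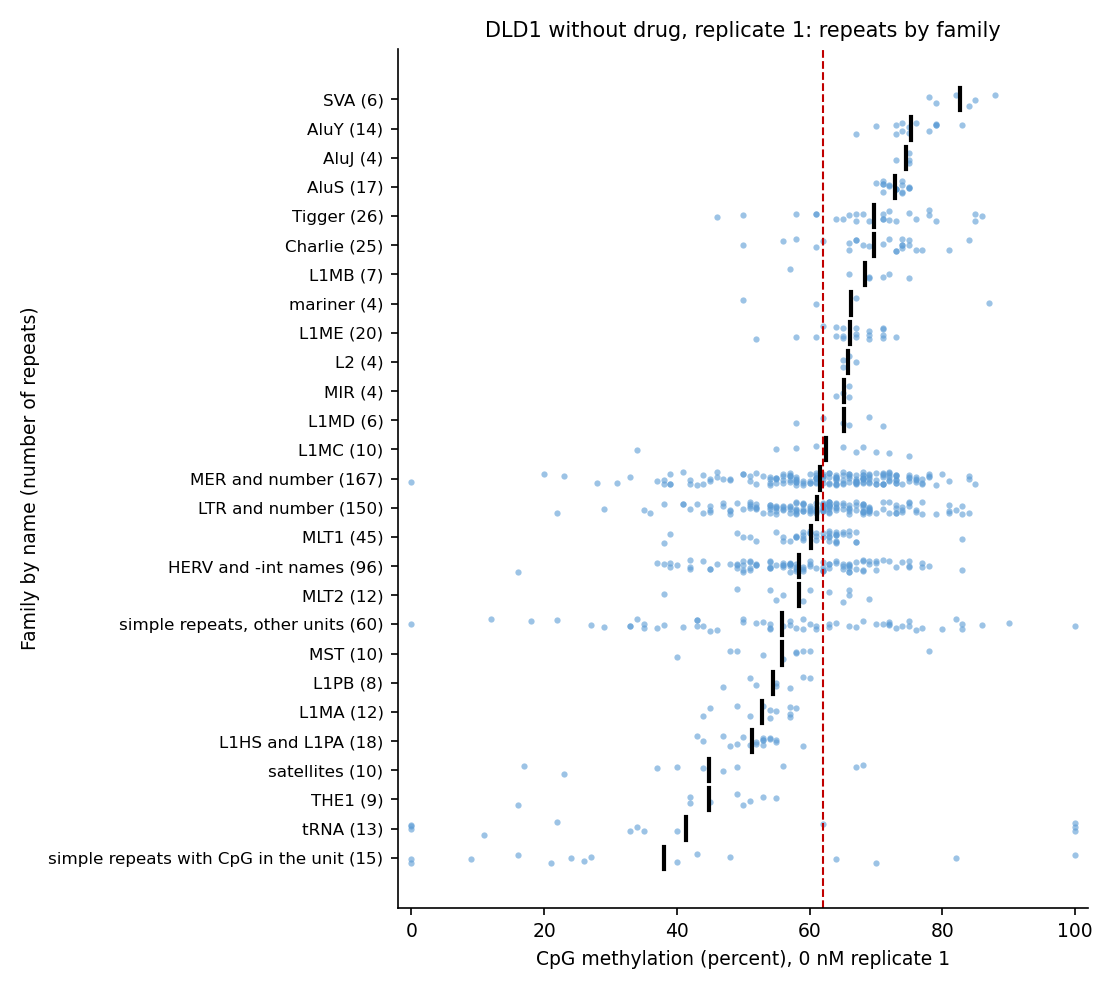
CpG methylation (percent) of single repeats in untreated DLD1 replicate 1, by family of name, with 1 point per repeat, the family mean as a black bar and the library median of 62% as a dashed line. SVA and Alu names lie to the right of the median, the primate L1, L1MA and THE1 names to the left, and tRNA names span the whole axis; the HERV and -int group shares names with THE1, MST, MLT1 and MER.

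The rows that carry these names did not keep their order in the other DLD1 libraries. Over the 23 families with at least 5 names, the family means spanned 44.7 points in untreated replicate 1, from simple repeats with CG at 38.0% to SVA at 82.7%. In untreated replicate 2 they spanned 22.0 points, from L1MB at 50.1% to L1MA at 72.2%. The order of these L1 groups was thus the reverse of that in replicate 1. At 500 nM the family means spanned 19.7 points, and at 1000 nM 13.9 and 17.5 points.

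Single names showed the same. The row named L1HS was listed at 59% and 55% without drug, 37% at 500 nM, and 63% and 0% at 1000 nM. The row named LTR5_Hs, the LTR of the youngest HERV-K group, was listed at 65% and 79% without drug, 43% at 500 nM, and 20% and 0% at 1000 nM. For HSATII, a pericentromeric satellite, the values were 56% and 85%, 49%, and 50% and 34%. In the rows named L1HS and LTR5_Hs, the replicates at 1000 nM differed by 63 and 20 points, so that the change of a single named row with drug cannot be read.

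The row named Charlie1 was listed at 76% and 25% in the untreated replicates, and that named THE1B at 50% and 63% without drug and at 0%, 14% and 40% in the treated libraries. AluYb8, one of the youngest Alu subfamilies, was listed at 79% and 60% without drug, 24% at 500 nM, and 44% and 38% at 1000 nM. Its row was lower in every treated library, as the library means were, and no more than that can be drawn from it.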

How the data were processed

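Per the labels' protocols, bisulfite-converted DNA went into EpiGnome libraries, read from both ends at 75 bp on a MiSeq. The submitters' processing notes name BSMAP 2.74, Picard 1.8.4 and hg19, without their roles. Per the file headers, the authors deposited percent CpG methylation of RepeatMasker repeats, written as whole percents, with a column per library. Depth, coverage filters and the way reads or CpGs were combined are not stated in these sources. Of 835 rows, 1 without a repeat name (0.120%) was left out.

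Columns were matched to samples by title. Library summaries were compared by exact permutation of library labels, two-sided. Logit and log2 percentiles used an offset of 1 point. Row-by-row tests were not run, since rows did not correlate between libraries. Bounds and permutation code were tested on simulated data. The measures, families and named repeats were chosen with earlier results of these data known. Repeats were named from the 10 highest and lowest of untreated replicate 1, a fixed list of 18 repeats and families by name pattern. Not all of these are printed, and the single rows given are examples. Simple repeats by unit, the 15% and 85% tails, values at 50%, skewness and the fits of a constant shift were added after the values were seen. Alternatives were other handling of 0% and 100% values, the unnamed row, medians, other offsets, levels and percentiles, a replicate block and leaving out libraries. Coverage minimums could not be applied. Neither coordinates nor sequences are printed, as no genome was used. The software was Python 3.11.15, scipy 1.17.1, pandas 2.3.3 and numpy 2.4.6.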

Additional observations from a re-analysis of the deposited data

Results flagged for a closer look

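The share of repeats listed at 0% or 100% changed in opposite directions with 1000 nM in DLD1 and HCT8 when libraries were paired by replicate number. In DLD1 it was higher by 1.92 and 4.80 points, a mean of 3.36 points. In HCT8 it was lower, at -0.719 and -0.120 points. The exact permutation p for DLD1 against HCT8 was 0.333 (two-sided, 2 differences against 2), the smallest possible. The HCT8 libraries at 0 and 1000 nM overlapped, at 2.52% and 4.44% without drug and 1.799% and 4.32% at 1000 nM. The single HCT8 library at 500 nM was above all of these, at 17.9%, against 8.27% in DLD1 at 500 nM. Both parts of this share differed between the lines at 1000 nM. The share at 100% changed by -1.199 points in HCT8 and -0.120 points in DLD1. The share at 0% was higher at 1000 nM in both lines, by 0.779 points in HCT8 and 3.48 points in DLD1. In HCT8 the fall at 100% exceeded the rise at 0%, and in DLD1 it did not. Depth is unknown and its part in this difference was not tested.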

How the results depend on the processing

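The sign of the change at 1000 nM was kept under every alternative for the mean, the relative change, the logit of the median, the shares below 20% and at 60% or more, the share at 0% or 100%, skewness and the log2 shift between percentiles. With 2 libraries a group no p could pass 0.05, so this says nothing of significance. Leaving out values of 0% and 100% turned the sign of 3 small differences: 1000 minus 500 nM in the mean to -0.937 points, the SD to -0.863 points, and the shift in points between the 10th and 90th percentile to 0.5 points (main value -3.15).

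Leaving out single libraries gave -23.4 to -22.0 points for the mean at 1000 nM, -23.4 to -23.1 at 500 nM, -0.163 to 1.25 for 1000 minus 500 nM, -23.3 to -22.6 for all treated libraries, -38.8% to -36.5% for the relative change and -1.02 to -0.94 for the logit of the median. It gave -1.74 to 2.38 points for the SD, -2.38 to 3.63 for the interquartile range, 5.94 to 12.4 for the share below 20%, -53.4 to -49.5 for the share at 60% or more and 1.2 to 5.52 for the share at 0% or 100%. The shift between percentiles ranged from -8.15 to 1.85 points, -1.15 to -0.49 in log2 and -0.58 to 0.024 in logit, the cumulative gap from 62.2% to 64.6% and skewness from 1.197 to 1.45. DLD1 against the other lines ranged from -7.15 to -4.34 points, -0.31 to -0.24 in log2 and -0.27 to -0.16 in logit.

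The replicate block left each value as it was, since it does not change a mean difference: -22.7 points for the mean, with an exact sign-flip p of 0.5 over 2 pairs, the smallest possible. Whether the numbers pair the libraries could not be checked across rows, which did not correlate. Depth, which would set the precision of each value, is unknown.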
